A study of Macaca fascicularis with 4 samples.

Results

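The nuclear genes of the respiratory chain, 84 rows among the 26223 gene rows of the deposited tables, were followed through 4 droplet single-cell RNA libraries of cynomolgus monkey (Macaca fascicularis) embryos. They were chosen by name and not by value, as every row whose name starts with NDUFA, NDUFB, NDUFC, NDUFS, NDUFV, UQCR, ATP5 or COX4 to COX8. Names found 60 rows: 37 of complex I, 7 of complex I assembly factors (NDUFAF), 14 of complex V, and ATP5S with ATP5SL. No row name starts with UQCR or with COX4 to COX8. The tables hold such genes under LOC identifiers, and a RefSeq gene table gave 24 more members through the number in the identifier, 7 of complex III and 17 of complex IV. These are counted apart, as members matched by gene ID, wherever a count is given. RefSeq names in that table belong to assembly T2T-MFA8v1.1, which may not be the one used for counting.

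The respiratory chain sits in the inner membrane of mitochondria. Complex I takes electrons from NADH and passes them through ubiquinone to complex III, cytochrome c carries them on to complex IV, which reduces oxygen, and the proton gradient built on the way drives complex V, the ATP synthase. Most subunits are encoded in the nucleus, made in the cytosol and imported, while a core set of hydrophobic subunits is encoded by mitochondrial DNA. Proximal tubule cells of the kidney are a textbook case of cells rich in mitochondria, whereas red blood cells lose theirs as they mature and endothelial cells are known for leaning on glycolysis.

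The title of the study places it among work on where gonadal somatic cells come from, in monkey and mouse, and mouse samples were not analysed here. Each stage is 1 library. At embryonic day 24 (E24, Carnegie stage 11), for which the label names 2 embryos, the trunk was taken after the yolk sac, amnion, heart with anterior tissue, and posterior growth zone had been cut away. At E28 (stage 13) and E31 (stage 14) the urogenital ridge was taken with mesonephros, coelomic epithelium and part of the mesentery. At E37 (stage 18) the sample was mainly gonadal ridge, with some mesonephros, mesentery and tissue thought to be adrenal. The labels name no treatment or strain. Because stage, dissection and library change together, they cannot be told apart, no test was possible, and each difference below is a difference between libraries or between barcodes of 1 library.

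In the order E24, E28, E31 and E37 the libraries held 10639, 5028, 6661 and 5298 cell barcodes with 115332663, 62477350, 72233442 and 40243286 unique molecular identifiers (UMIs, each counting 1 captured RNA molecule). The median barcode held 9990, 11391, 9766 and 6672.5 UMIs. Between 37 and 111 barcode sequences were shared by any pair of libraries, among 27626 barcodes. Levels are UMIs summed over barcodes, as counts per 1000000 UMIs (CPM), so 3 UMIs, the limit a count of 0 allows, correspond to between 0.0265 and 0.0776 CPM. UMIs count the 3′ ends of transcripts, so CPM was not divided by gene length, and members with near-identical copies elsewhere in the genome can lose or share UMIs, which makes levels between genes uncertain. Ratios carry exact conditional binomial 95% intervals, which cover counting error only, and a gene is called higher or lower at 1.5-fold or more.

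Barcodes were also grouped by 7 markers. A barcode counted as rich with at least 3 UMIs of PECAM1, PAX8, WT1 or SOX2, at least 10 of FXYD2 or STAR, or at least 1% of its UMIs from HBZ, the embryonic zeta globin. HBZ-rich barcodes (99, 48, 50 and 113) were left out of the stage levels and of the other sets. A cell type marker was counted at 2-fold or more over the rest and at least 3 UMIs in the set. The PECAM1-rich barcodes held all 6 of 6 endothelial markers in each library, and the HBZ-rich ones all 6 of 6 erythroid markers in each. FXYD2-rich barcodes held 6 of 6 mesonephric tubule markers at E28 and 4 of 6 at E31, where CUBN and SLC3A1 were at 0, SLC3A1 in the rest as well. The other labels held less well. PAX8-rich barcodes passed 2-fold in 3, 2 and 2 of 6 nephric markers at E24, E28 and E31, and WT1-rich ones in 0, 6, 5 and 5 of 6 podocyte markers, with 4 of them at 0 at E24, and in 1, 0, 0 and 4 of 6 coelomic and gonadal markers. SOX2-rich barcodes passed in 5 of 6 neural markers at E24 but in 2, 1 and 2 later, where PAX6, SOX3, SOX21 and HES5 were at 0, SOX3 and HES5 in the rest as well. The sets are therefore named by their marker only.

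The first question was how far the levels moved between the 4 libraries. The named members together made up 1.81% of UMIs at E24, 1.78% at E28, 1.88% at E31 and 1.67% at E37, and the members matched by gene ID 0.789%, 0.869%, 0.907% and 0.736%. All 60 named members had UMIs in every library. Of the 59 at a mean of 10 CPM or more (NDUFA4L2 lay below), 53 (89.8%) stayed within 1.5-fold from their lowest to their highest library, beside 56.1% of the 8583 gene rows at that level. The median span was 1.24-fold for the named members and 1.44-fold for all those rows. Among members matched by gene ID, 15 of 19 (78.9%) stayed within 1.5-fold, and UQCRFS1, COX6A2, COX6B2, COX7B2 and COX8C lay below 10 CPM. By complex the median span was 1.25-fold for complex I, 1.33-fold for complex III, 1.32-fold for complex IV and 1.14-fold for complex V, so the ATP synthase genes were the steadiest and the genes of complexes III and IV the least steady. E37 was the lowest library for 32 of the 59 named members (54.2%), beside 33.5% of all rows.

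Within complex I the most abundant transcripts came from accessory subunits. NDUFS5, a small accessory subunit on the intermembrane space side, stood at 992, 950, 1017 and 815 CPM in the 4 libraries. NDUFA4, long listed with complex I and since placed in complex IV, stood at 550, 706, 640 and 531 CPM, and NDUFA11, an accessory membrane subunit, at 648, 577, 602 and 560 CPM. By its name NDUFA4 was counted with complex I here, also in the sums of that complex below. NDUFA4 was highest at E28, while NDUFS5 and NDUFA11 were highest at E31 and E24. The core subunits lay below these transcripts on the CPM scale but differed among themselves. NDUFV1, which binds NADH and FMN, had 79.95, 104.4, 94.41 and 98.86 CPM, and NDUFS1, the large iron-sulfur subunit, 19.6, 22.1, 19.9 and 24.4 CPM. NDUFS7, another core subunit, had 214.2, 200.8, 214.4 and 200.4 CPM. Some accessory subunits were low too, such as NDUFA10 with 65.1, 72.2, 74.8 and 79.8 CPM. NDUFS8, a core iron-sulfur subunit, moved least, with 218.9, 219.7, 217.8 and 213.7 CPM. The 7 NDUFAF assembly factors lay lower than most subunits, from NDUFAF3 (96.7, 109.8, 124.1 and 111.7 CPM) down to NDUFAF7 (15.1, 14.5, 15.2 and 13.6 CPM).

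In complex III the highest levels were those of UQCR11 (571, 589, 624 and 545 CPM), UQCRQ (293, 257, 277 and 249.5 CPM) and UQCRH (196.8, 347.8, 324.5 and 275.4 CPM), all small subunits. UQCRC1, a core subunit, was highest at E28 with 152.3 CPM, against 109.0 at E24, 125.8 at E31 and 84.5 at E37. UQCRFS1, the Rieske iron-sulfur protein, stood at 3.54, 4.18, 3.61 and 2.56 CPM, the lowest level in this complex.

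In complex IV, COX7C led with 1275, 1581, 1667 and 1144 CPM, followed by COX6C with 1032, 931, 1065 and 781 CPM and COX7B with 728, 775, 806 and 658 CPM. All 3 were lowest at E37. In complex V the highest were ATP5G2, a gene for the membrane ring subunit c, with 1588, 1538, 1609 and 1472 CPM, and ATP5E, the epsilon subunit of the catalytic head, with 1450, 1553, 1743 and 1379 CPM. ATP5L, subunit g of the membrane part, had 591, 629, 665 and 537 CPM.

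**Figure D1:**
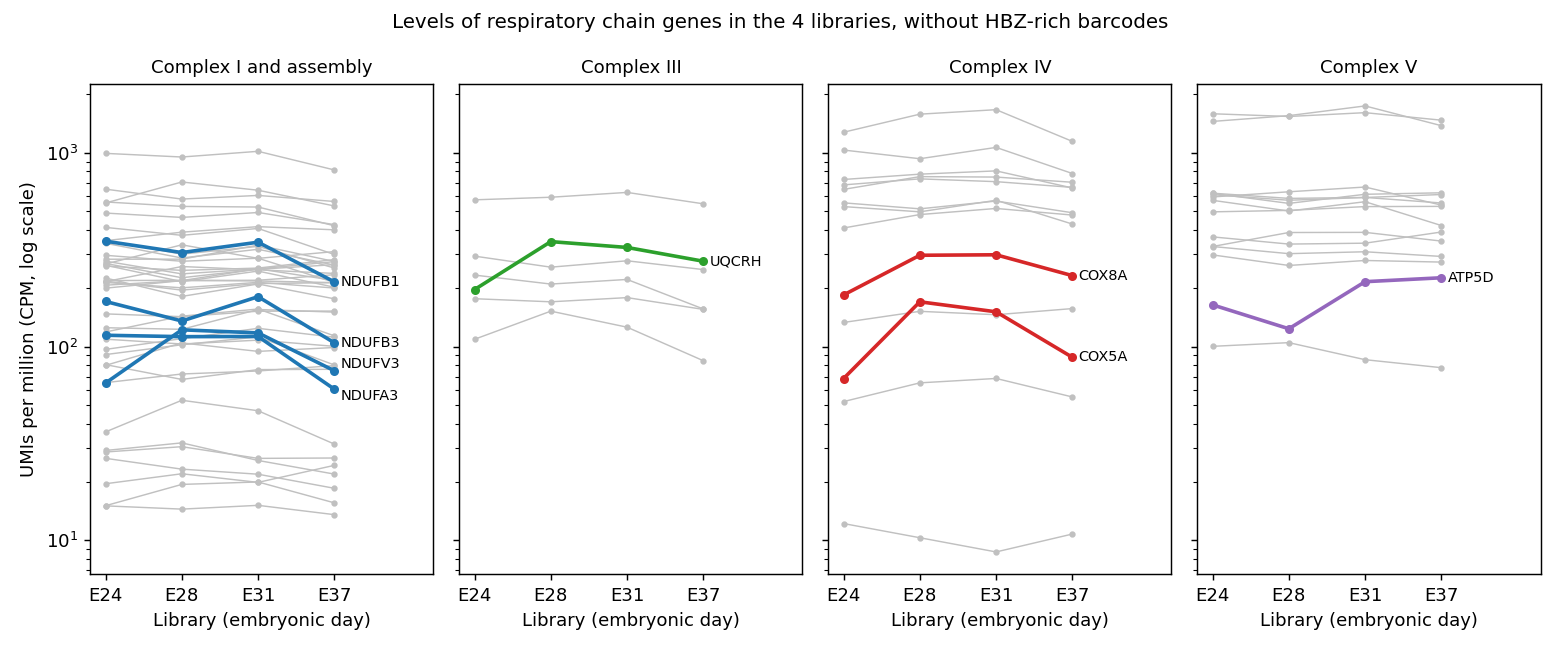
Levels in CPM (log axis) of the members at a mean of 10 CPM or more, by library and complex, without HBZ-rich barcodes; each line is 1 gene and coloured lines are the 8 genes past 1.5-fold between neighbouring libraries. ATP5S and ATP5SL are not drawn. Most lines run flat, while COX5A goes from 68.4 to 170.1 CPM between E24 and E28 and back to 88.0 CPM at E37.

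The differences past 1.5-fold between neighbouring libraries came down to a handful of genes, marked in the plot of levels by library. From E24 to E28 the named members passed 1.5-fold upward in 1 of 59, beside 28.6% of the 14276 genes tested, and downward in 0 of 59, beside 9.23%. Their median log2 ratio was -0.06, against 0.22 over all genes. The 1 gene was NDUFV3, an accessory subunit of the NADH-oxidising module, which went from 64.8 to 122.0 CPM (1.88-fold, 1.82 to 1.94). Of the 21 tested members matched by gene ID, 3 were higher at E28. COX5A, the complex IV subunit that forms part of its matrix side, went from 68.4 to 170.1 CPM (2.49-fold, 2.42 to 2.56), UQCRH, the hinge protein beside cytochrome c1, was 1.77-fold higher (1.73 to 1.80) and COX8A, the ubiquitous isoform of subunit VIII, 1.60-fold higher (1.57 to 1.63).

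Of these 4 genes, NDUFV3, COX5A and UQCRH were past 1.5-fold at E28 in barcodes held to 1 marker too, a comparison added after the values were seen, and COX8A was not. NDUFV3 was 1.7-fold higher (1.41 to 2.06) in PECAM1-rich, 1.80-fold (1.39 to 2.37) in WT1-rich and 1.90-fold (1.57 to 2.28) in SOX2-rich barcodes. COX5A was 1.93-, 2.79- and 1.98-fold higher and UQCRH 1.79-, 1.72- and 1.76-fold higher in these sets. COX8A measured 1.21-fold (1.07 to 1.36), 1.43-fold (1.22 to 1.69) and 1.36-fold (1.18 to 1.55). In HBZ-rich barcodes, read as CPM of all UMIs, NDUFV3 stood at 70.9 CPM at E24 and 70.4 CPM at E28. Globin genes with 2 unnamed rows took a median of 36.7% and 58.6% of their UMIs, so these 2 levels have unlike totals. The share of genes called higher in the sets was 7.91%, 9.2% and 12.4%. Cell type was not held constant in 2 of these sets. WT1-rich barcodes passed in 0 of 6 podocyte markers at E24 and 6 of 6 at E28. SOX2-rich ones passed in 5 of 6 neural markers at E24 and 2 of 6 at E28.

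From E28 to E31 the complexes moved little. The named members passed upward in 1 of 60, beside 2.55% of the 14274 genes tested, and downward in 0, beside 6.8%, and none of the 21 members matched by gene ID passed in either direction. The 1 was ATP5D, the delta subunit in the central stalk of the ATP synthase. Its level was 164.1 CPM at E24, 123.5 at E28, 216.1 at E31 and 226.4 at E37, so that E28 was the low library and the step to E31 was 1.75-fold (1.7 to 1.80). It measured 1.75-fold in PECAM1-rich, 1.76-fold in WT1-rich and 2.21-fold (1.7 to 2.88) in SOX2-rich barcodes, where 3.13%, 2.36% and 1.81% of genes were called higher. Of the named members, 45 of 60 lay above 0 on the log2 scale, with a median of 0.07 against -0.06 over all genes. The share of all genes above 0 is not given here.

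From E31 to E37 the named members were lower as a group by a small amount: their summed level was 0.887 of that at E31, 41 of 59 lay below 0 and the median log2 ratio was -0.13, against -0.02 over all 13465 genes tested. Past 1.5-fold were 4 of 59 downward, beside 12.2% of genes, and 0 upward, beside 13.8%. All 4 were accessory subunits of complex I. NDUFA3 went from 112.7 to 60.3 CPM (1.87-fold lower, 1.79 to 1.96) after near-constant levels in the first 3 libraries. NDUFB3 went from 180.8 to 104.6 CPM (1.73-fold lower, 1.67 to 1.79), NDUFB1 from 345.4 to 215.6 CPM (1.60-fold lower, 1.56 to 1.64) and NDUFV3 from 117.6 back to 75 CPM (1.57-fold lower, 1.5 to 1.64). Of 20 tested members matched by gene ID, COX5A alone passed, with 151.1 CPM at E31 and 88.0 at E37 (1.72-fold lower, 1.65 to 1.78). All 7 complex III members lay below 0. The share of all genes below 0 is not given here.

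Within barcodes of 1 marker, the 5 genes held up unevenly. NDUFA3 at E37 was 0.56 of its E31 level in PECAM1-rich barcodes (104.3 to 58.8 CPM), 0.59 in WT1-rich (118.0 to 69.2 CPM) and 0.53 in SOX2-rich barcodes (116.4 to 61.7 CPM), past 1.5-fold in each. NDUFV3 was at 0.55, 0.69 and 0.65 in these sets, past 1.5-fold in PECAM1-rich and SOX2-rich barcodes. NDUFB3 (0.62, 0.60 and 0.75) and COX5A (0.64, 0.62 and 0.77) passed in PECAM1-rich and WT1-rich barcodes, and NDUFB1 (0.69, 0.68 and 0.91) in none. Of all genes, 6.49%, 9.44% and 5.4% were called lower in these sets. The sets differed in the sum: the named members together were at 0.868 of the E31 level in PECAM1-rich and 0.883 in WT1-rich barcodes but at 0.989 in SOX2-rich ones, where the sum was closest to that at E31. The difference between the sets was not tested. WT1-rich barcodes passed in 5 of 6 podocyte markers in both libraries. In coelomic and gonadal markers they passed in 0 of 6 at E31 and 4 of 6 at E37, so cell type was not held constant.

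Other genes of mitochondrial and energy metabolism, from fixed lists, gave a background for these stages. Between E24 and E28, 8 of 17 glycolysis genes passed 1.5-fold downward (HK2, TPI1, PGK1, PGAM1, ENO1, PKM, LDHA and the glucose transporter gene SLC2A1), with a median log2 ratio of -0.33, and 0 passed upward, beside 9.23% and 28.6% of all genes. Of 8 regulators of mitochondrial genes, 2 passed upward, PPARGC1A and ESRRA, which is close to the share of all genes. PPARGC1A, the coactivator PGC-1alpha, stood at 0.504 CPM at E24, 13.3 at E28, 10.2 at E31 and 1.47 at E37. It was high at E28 and E31 and low at E24 and E37. ESRRA, a nuclear receptor that works with it, stood at 6.15, 11.8, 9.41 and 5.27 CPM. TFAM, which packages mitochondrial DNA, was lower at each later stage, with 29.5, 22.3, 19.0 and 12.1 CPM. Between E31 and E37, where 12.2% of all genes passed downward and 13.8% upward, 3 of the 8 regulators passed downward (PPARGC1A, ESRRA and TFAM) and 1 upward, PPARGC1B, a relative of PPARGC1A (1.86 to 3.88 CPM). The assembly factors of complexes III to V passed downward in 3 of 25 (COX15, COX17 and COA3), a share like that of all genes. Cytochrome c (CYCS) and SDHC, 1 of 3 tested genes of complex II, passed downward too, and the median of the cytosolic ribosomal protein genes was -0.01.

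The marker-rich barcodes were then set against the rest of their own library, which holds stage and dissection constant. FXYD2-rich barcodes held the highest share of respiratory chain UMIs of the sets compared. FXYD2 encodes the gamma subunit that regulates the sodium pump in kidney tubules. Enough such barcodes were found at E28 (186) and E31 (72), against 2 at E24 and 8 at E37, which were not compared. The named members made up 2.14% of their UMIs against 1.76% in the rest at E28 (1.22-fold, 1.21 to 1.23), and 2.22% against 1.88% at E31 (1.18-fold, 1.17 to 1.20). The excess was spread over nearly the whole set: 54 of 57 tested named members lay above 0 at E28 and 48 of 51 at E31, with median log2 ratios of 0.28 and 0.23, against 0.13 and 0.09 over all 6747 and 2738 genes tested. Over both kinds of members, 64 of the 69 tested in both libraries were higher in both. The medians over all genes lay above 0 as well. The shares of all genes above 0, or higher in both libraries, are not given here.

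**Figure D2:**
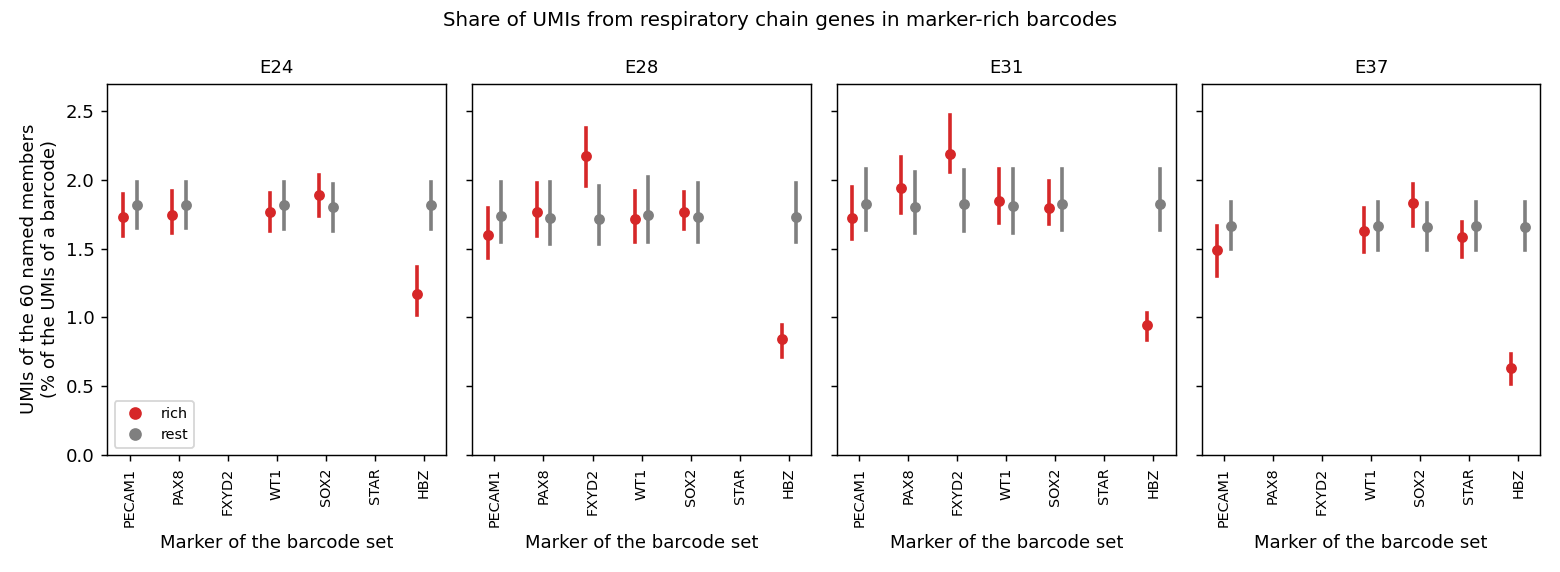
Share of the UMIs of a barcode that came from the 60 named members, for marker-rich barcodes (red) and the rest of the library (grey); points are medians over barcodes, bars hold the central 50% of barcodes, and sets under 50 barcodes are left out except HBZ at E28 (48), while STAR uses at least 2 UMIs at E37. FXYD2-rich barcodes sit above the rest at E28 and E31, and HBZ-rich barcodes below it in all 4 libraries.

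Few members passed 1.5-fold in FXYD2-rich barcodes. At E28 these were 3 of 57 named members upward, beside 15.9% of genes, and 0 downward, beside 6.31%. NDUFA8, an accessory subunit with disulfide-bonded helices, had 199.6 CPM against 119.3 in the rest (1.67-fold, 1.53 to 1.83), NDUFC1, a small membrane subunit, 340.6 against 213.4 CPM (1.60-fold, 1.49 to 1.71) and NDUFB4 693.5 against 453.4 CPM (1.53-fold, 1.46 to 1.60). At E31, 0 of 51 passed upward, beside 10.2%, and 0 downward, beside 4.53%. In either direction, 3 passed when only barcodes rich in FXYD2 alone were taken and 4 within the depth window described under processing. The shares of all genes under these alternatives are not given here. The members matched by gene ID stood further out, with summed ratios of 1.35 at E28 and 1.32 at E31. COX8A was the member furthest from the rest in both: 530.6 against 285.3 CPM at E28 (1.86-fold, 1.76 to 1.96) and 541.9 against 294.4 CPM at E31 (1.84-fold, 1.68 to 2.02). At E28 COX7C (2450 against 1542 CPM, 1.59-fold), COX5B (728.3 against 468.6 CPM, 1.55-fold) and UQCR11 (884.7 against 576.1 CPM, 1.54-fold) passed too, making 4 of 18.

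By complex, the summed ratios in FXYD2-rich barcodes at E28 were 1.24 for complex I, 1.37 for complex III, 1.34 for complex IV and 1.21 for complex V, and at E31 1.19, 1.33, 1.31 and 1.18, so complexes III and IV stood above I and V in both libraries. The assembly factors did not share the excess, with 0.917 (0.850 to 0.989) at E28 and 1.06 at E31. Among them NDUFAF4 was at 54.8 against 68.2 CPM at E28 and at 86.9 against 75.9 CPM at E31. The 3 genes for subunit c, whose mature proteins are the same, differed in size: ATP5G3 had 769.2 against 559.6 CPM at E28 (1.37-fold) and 765.4 against 585.3 CPM at E31 (1.31-fold), ATP5G1 gave 1.32 and 1.28-fold, and the most abundant, ATP5G2, only 1.07 and 1.06-fold.

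**Figure D3:**
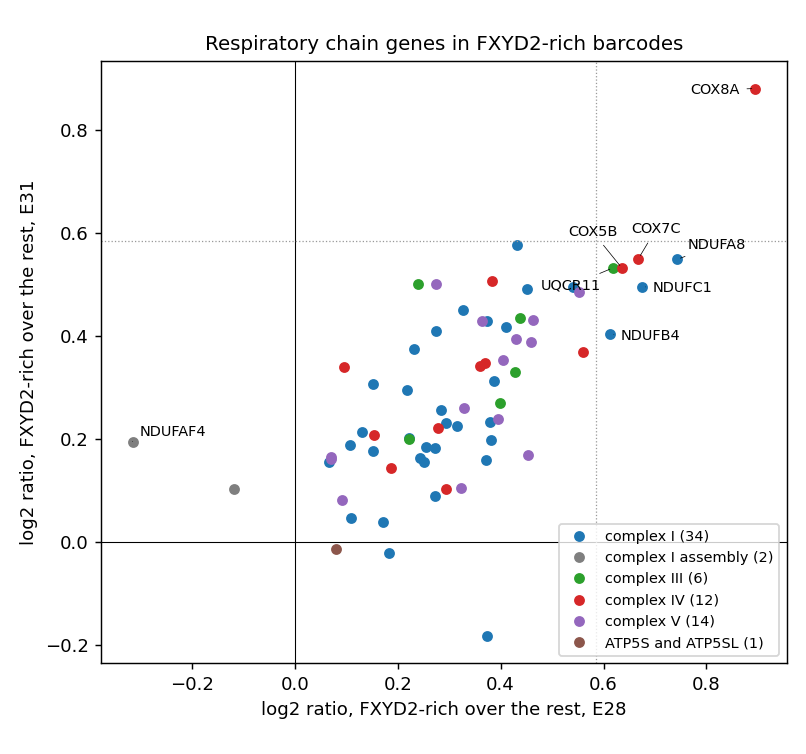
Log2 ratios of members in FXYD2-rich barcodes over the rest at E28 (horizontal) and E31 (vertical), for the 69 members tested in both libraries, coloured by complex; dotted lines mark 1.5-fold. Most points lie above 0 on both axes, with COX8A furthest out at 1.86-fold and 1.84-fold.

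Set against PAX8-rich barcodes that were not FXYD2-rich, an added comparison, the named members summed to 1.21-fold at E28 and 1.14-fold at E31. PAX8 is a transcription factor of the developing nephron, and 62 and 24 of the FXYD2-rich barcodes were PAX8-rich as well. At E28 NDUFA8 (1.74-fold), COX8A (1.65-fold), UQCR11 (1.64-fold), NDUFC1 (1.55-fold), COX5B (1.54-fold) and COX7A1 (1.52-fold) passed, and at E31 COX8A (1.52-fold), beside 13.9% and 7.27% of genes. Summed tubule markers were 472.3 against 41.7 CPM in the rest at E28 and 335.8 against 37.0 CPM at E31. Median depth was 12729.5 against 11305 UMIs at E28 and 9956 against 9724 at E31.

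Neighbouring pathways moved unevenly in FXYD2-rich barcodes. SDHB, the iron-sulfur subunit of complex II, was past 1.5-fold upward in both libraries. Glycolysis genes passed in 1 of 14 upward, beside 15.9% of all genes, and 3 of 14 downward, beside 6.31%, at E28. At E31 it was 1 of 11 upward, beside 10.2%, and 0 downward, beside 4.53%. The cytosolic ribosomal protein genes had medians of -0.23 and -0.19. PPARGC1A had 49.0 against 11.8 CPM at E28 (4.17-fold, 3.43 to 5.05) and 33.6 against 9.92 CPM at E31 (3.38-fold, 2.25 to 4.90, on 29 UMIs). None of the other listed regulators passed 1.5-fold upward in both libraries. ESRRA stood at 2.20-fold at E28 (1.68 to 2.85) but 0.985-fold at E31, on 8 UMIs. In the order E28 and E31, TFAM gave 1.30 and 1.16, TFB2M 1.38 and 0.741 and YY1 1.06 and 1.07. GABPA gave 1.08 and 0.989 and NRF1 0.790 and 0.727. PPARGC1B had 1 and 2 UMIs.

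PECAM1-rich barcodes, with an endothelial adhesion molecule as marker, numbered 129, 167, 200 and 112. The named members summed to 0.945, 0.897, 0.908 and 0.889 of the rest at E24, E28, E31 and E37, below 1 in each library. By complex, the summed ratios were 0.921, 0.879, 0.883 and 0.867 for complex I and 0.972, 0.916, 0.931 and 0.914 for complex V. Among members matched by gene ID they were 1.01, 0.927, 0.973 and 1.02 for complex III and 1.03, 0.972, 0.978 and 1.01 for complex IV, so these sums lay nearer to the rest than that of complex I in each library. Single complex IV genes differed from their sum: COX6A1, COX7A2L and COX5A were lower in all 4 libraries, and COX6C and COX7A2 higher in all 4. In their closest library COX5A and COX7A2 came within 0.0074 and 0.0095 of the rest on the log2 scale. Over both kinds of members 32 of 69 were lower in all 4 libraries and 10 were higher in all 4. The matching shares of all genes are not given here. Median log2 ratios of the named members were -0.08, -0.13, -0.12 and -0.26, against -0.04, -0.12, -0.07 and -0.14 over all genes, so the members lay close to genes at large at E28 and furthest below them at E37.

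Past 1.5-fold downward in PECAM1-rich barcodes were 0 of 52, 4 of 56, 3 of 58 and 2 of 51 named members, beside 12.6%, 18%, 14.5% and 18% of genes. Upward it was 1 of 51 at E37 and 0 in the other libraries, beside 13.4% at E37 and 16.9%, 14.9% and 14.8% at E24, E28 and E31. ATP5J2, subunit f of the ATP synthase membrane part, recurred, with 318.8 against 508.5 CPM at E28, 373.7 against 567.3 CPM at E31 and 271.9 against 426.4 CPM at E37 (0.63, 0.66 and 0.64 of the rest). NDUFB10 had 181.9 against 304.9 CPM at E28 (0.60) and 206.6 against 334.4 CPM at E31 (0.62). NDUFS4, an accessory subunit needed for a stable NADH module, had 116.0 against 217.0 CPM at E37 (0.53, 0.45 to 0.63). NDUFA8 was the 1 member past 1.5-fold upward, with 226.0 against 147.8 CPM at E37 (1.53-fold, 1.36 to 1.72). Of the members matched by gene ID, COX6A1 passed downward with 381.0 against 571.6 CPM at E31 and 305.8 against 496.6 CPM at E37, and COX7A1 with 33.9 against 55.7 CPM at E37.

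Of the subunit c genes, ATP5G2 was lower in PECAM1-rich barcodes in every library, with 1230 against 1594, 1224 against 1552, 1273 against 1625 and 1222 against 1481 CPM. Of the glycolysis genes, 1 of 13, 1 of 13, 1 of 13 and 1 of 12 passed upward, in each library HK1, a hexokinase that opens the pathway. Downward it was 3, 2, 2 and 4, with PFKM, a phosphofructokinase, in all 4 libraries, beside the shares of all genes given above. The medians of the list were -0.07, -0.24, -0.05 and -0.40. PECAM1-rich barcodes were deeper than the rest, with medians of 12878 against 9931, 14292 against 11268, 13534.5 against 9651 and 10643.5 against 6578 UMIs, and the part of depth in these ratios was tried with the depth window only.

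PAX8-rich barcodes (133, 1011 and 899 at E24, E28 and E31), WT1-rich (65, 1553, 1541 and 344) and SOX2-rich (1631, 61, 78 and 110) held respiratory chain levels close to the rest. WT1 is a transcription factor of podocytes and gonadal precursors, and SOX2 one of neural progenitors and pluripotent cells. The named sums were 0.992, 1.01 and 1.05 for PAX8, 0.981, 0.957, 0.990 and 0.988 for WT1, and 1.05, 1.01, 0.983 and 1.10 for SOX2. No named member passed 1.5-fold in any of these 11 comparisons, and of the members matched by gene ID COX4I2 alone did. Among all genes the share called upward was 3.59%, 6.67% and 6.77% for PAX8, 2.24%, 4.26%, 4.74% and 4.05% for WT1, and 6.05%, 8.81%, 5.81% and 16% for SOX2. Downward it was 5.46%, 7.19% and 6.23%, then 2.95%, 8.32%, 6.39% and 3.14%, then 12.2%, 7.35%, 7.85% and 8.1%. At E37, where the SOX2-rich sum was highest, complex I was at 1.13 of the rest. At E28 and E31, 518 and 481 of the PAX8-rich barcodes were WT1-rich too, so these sets are not independent.

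STAR, the protein that brings cholesterol into mitochondria for steroid synthesis, reached at most 4, 4, 4 and 5 UMIs in a barcode, and no barcode met the rule. With at least 2 UMIs, a threshold set after this was seen, E37 held 110 barcodes. Their named share was 1.57% against 1.67% (0.937, 0.924 to 0.951), and 0 of 51 members passed upward, beside 4.81%, or downward, beside 12.7%. By gene ID COX7A1 passed, with 81.1 against 54.0 CPM (1.5-fold, 1.22 to 1.83). These barcodes were deeper than the rest, with a median of 11553 against 6581 UMIs, so the ratios may reflect depth as well as STAR. The 6 markers of steroid-making cells were too sparse to check these barcodes against. FDX1 and SCARB1 stood at 1.47-fold and 1.46-fold, while HSD3B2 had 2 UMIs against 1 in the rest, NR5A1 1 against 6, CYP17A1 0 against 9 and MC2R 0 in either.

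In HBZ-rich barcodes the share of respiratory chain UMIs was the lowest of the sets compared. E28, with 48 such barcodes, was added although it lay under the minimum of 50. The named members made up 1.19% against 1.81% at E24, 0.921% against 1.78% at E28, 0.954% against 1.88% at E31 and 0.662% against 1.67% at E37, or 0.658, 0.518, 0.508 and 0.397 of the rest. Past 1.5-fold downward were 24 of 54, 37 of 52, 37 of 51 and 48 of 51 members, beside 69.1%, 83.7%, 83.7% and 91.2% of genes, and upward NDUFAF3 alone, at E24, beside 4.73%, 4.16%, 3.34% and 3.78%. Globin genes and 2 unnamed rows together took a median of 36.7%, 58.6%, 56.2% and 71.9% of the UMIs of these barcodes. That lowers the CPM of every other gene. Median log2 ratios of the members were -0.48, -0.79, -0.85 and -1.24, and over all genes -0.98, -1.42, -1.44 and -2.11, so the members lay less far below the rest than genes at large. In absolute terms the median HBZ-rich barcode held 276, 236.5, 256.5 and 83 UMIs of the named members, against 181, 201.5, 183 and 112 in the rest, at median depths of 23895, 31407, 28105 and 13358 UMIs. It held more of them than the rest at E24, E28 and E31 and fewer at E37.

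Each of the 2 unnamed rows took over 5% of the UMIs of HBZ-rich barcodes at E37. The direction turned when they and the haemoglobin genes were left out of the totals, an alternative added after the data were seen. The named members then made up 1.97%, 2%, 2.07% and 2.15% of UMIs, or 1.09-, 1.13-, 1.10- and 1.29-fold the rest. Past 1.5-fold upward were 16 of 53, 13 of 50, 11 of 49 and 17 of 44, beside 16.5%, 19.4%, 18.7% and 25.4% of genes, and downward 1, 3, 3 and 4, beside 30.7%, 29.7%, 29.6% and 29.8%. Medians were 0.24, 0.33, 0.28 and 0.48, against -0.18, -0.08, -0.07 and 0.01 over all genes. Members past 1.5-fold upward in all 4 libraries included NDUFS3, a core subunit (1.90-, 2.02-, 1.89- and 1.80-fold), and NDUFAF3 (2.52-, 1.77-, 2.02- and 2.01-fold). NDUFA8 reached 3.13-fold (2.73 to 3.58) at E37. CYCS passed upward in all 4 and the mitochondrial ribosomal protein genes had medians of 0.54, 0.37, 0.41 and 0.34, whereas glycolysis genes had medians of -0.58, -0.39, -0.15 and -0.57.

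The subunit c genes parted company in HBZ-rich barcodes. ATP5G2 had 505 CPM against 1588 in the rest at E24, 323 against 1538 at E28, 293 against 1609 at E31 and 131 against 1472 at E37, which is 3.15-fold (2.97 to 3.34), 4.76-fold, 5.49-fold and 11.2-fold (9.79 to 12.9) lower. ATP5G3 had 660.5 against 607.3, 362.6 against 568.5, 358.1 against 587.5 and 189.9 against 608.6 CPM, and ATP5G1 374.4 against 328.2, 200.6 against 301.4, 211.1 against 308.3 and 89.5 against 291.6 CPM. Thus ATP5G2 was the most abundant of the 3 in the rest of each library, while in HBZ-rich barcodes ATP5G3 stood above it at E24, E28, E31 and E37. Without haemoglobin in the total ATP5G2 was still at 0.52, 0.46, 0.40 and 0.29 of the rest, so its direction held under both totals, and ATP5G1 and ATP5G3 were at 1.88 and 1.79, 1.45 and 1.39, 1.49 and 1.32, and 0.998 and 1.01. NDUFB5 was also past 1.5-fold downward without haemoglobin at E28, E31 and E37 (0.61, 0.50 and 0.56), and NDUFS4 at E31 and E37 (0.53 and 0.61).

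**Figure D4:**
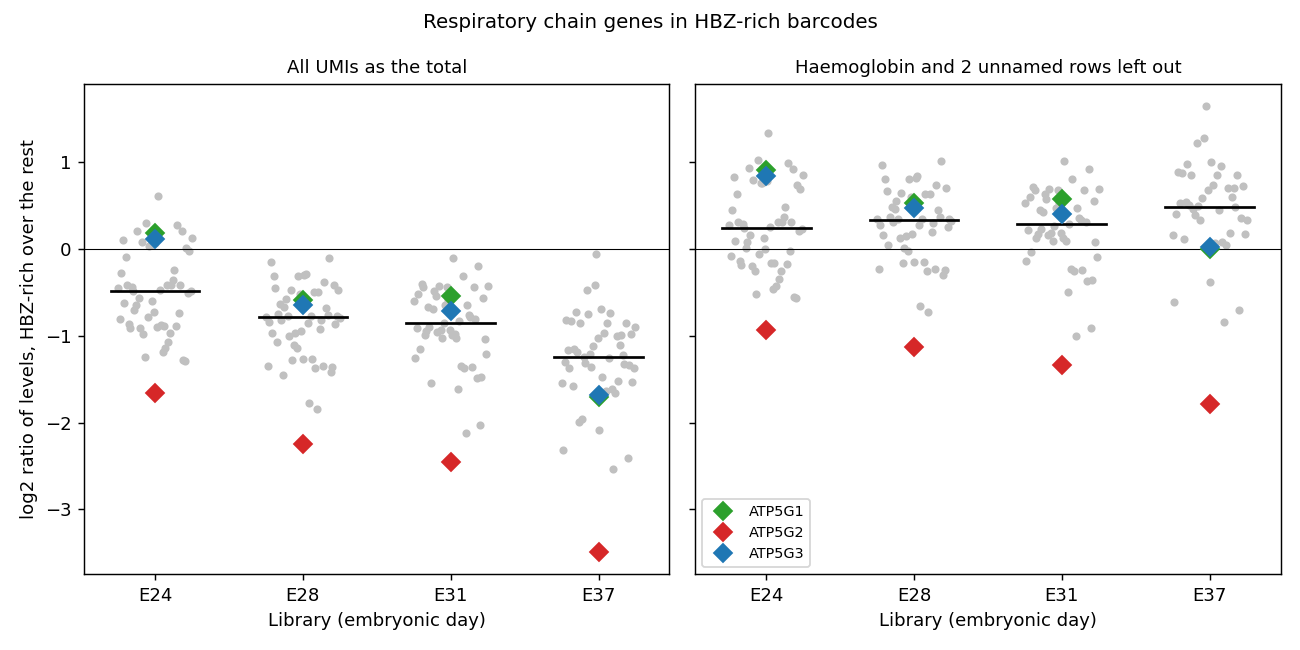
Log2 ratios of the named members in HBZ-rich barcodes over the rest, by library, with all UMIs as the total (left) and with haemoglobin genes and 2 unnamed rows left out (right); grey points are genes, black bars the medians of the named members, diamonds the 3 subunit c genes. ATP5G2 lies below the median in every library under both totals, at 0.52 to 0.29 of the rest in the right panel.

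Some subunits come in isoforms with tissue-restricted use. The ubiquitous forms carried most UMIs: COX4I1 had 646.9, 752.6, 748.8 and 704.0 CPM against 12.2, 10.3, 8.72 and 10.8 CPM for COX4I2, and COX7A2 682, 733, 709 and 662 CPM against 52.0, 65.0, 68.4 and 54.9 CPM for COX7A1, the form of heart and skeletal muscle. COX7A2L, which helps complexes III and IV join, had 133, 152, 146 and 157 CPM. COX6A1 had 551, 513, 563 and 490 CPM and COX6B1 527, 495, 568 and 429 CPM. Their counterparts were barely seen: COX6A2, the muscle form, stayed at or under 0.115 CPM and COX6B2, the testis form, at or under 1.33 CPM. NDUFA4L2 was at 0.371, 0.803, 0.917 and 0.595 CPM.

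COX4I2, a form described from lung and induced under low oxygen in other systems, differed between barcode sets. In PAX8-rich barcodes it had 15.5 against 8.65 CPM at E28 (1.79-fold, 1.51 to 2.11) and 15.8 against 7.18 CPM at E31 (2.20-fold, 1.85 to 2.61), and in WT1-rich ones 13.3 against 8.77 CPM (1.51-fold, 1.29 to 1.77) and 13.3 against 7.03 CPM (1.89-fold, 1.60 to 2.22). At E24 SOX2-rich barcodes had 3.12 against 14 CPM (4.48-fold lower, 3.44 to 5.93). WT1-rich barcodes at E37 had 2.26 CPM on 7 UMIs, and PECAM1-rich barcodes 11, 2, 1 and 1 UMIs in the 4 libraries, so the set with the higher level at E28 and E31 was a low one at E37. COX4I1 stayed within 1.5-fold in all of these sets.

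COX8C, the isoform of subunit VIII described from testis, gave 170 UMIs in the 4 libraries, and 145 of them (85.3%) lay in 23 barcodes. Those barcodes, chosen after the values were seen, held at least 5 UMIs of POU5F1, a pluripotency factor kept on in primordial germ cells. There were 10, 4, 5 and 4 of them at E24, E28, E31 and E37, and 21 of the 23 had COX8C, against 15 of the other 27603 barcodes. Their summed level was 273 CPM (193 to 374) at E24, 215 (151 to 298) at E28, 388 (293 to 504) at E31 and 132 (74.1 to 218) at E37, against 0.0347, 0.0642, 0.222 and 0.0249 CPM in all other barcodes. COX8A was present in the same barcodes at 215, 293, 173 and 176 CPM, so both isoforms were detected at levels of the same order. NANOS3, a germ cell gene, stood there at 222, 317, 340 and 194 CPM against 0.773, 2.25, 1.69 and 3.81 CPM elsewhere, and NANOG at 452, 395, 513 and 468 CPM. Median depth was 15080.5, 41813.5, 38156 and 27644.5 UMIs against 9989, 11386.5, 9766 and 6668, and its part in the result was not tested. Of 19 barcodes with at least 3 COX8C UMIs, 16 met the POU5F1 rule and 3 had no POU5F1 UMI.

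**Figure D5:**
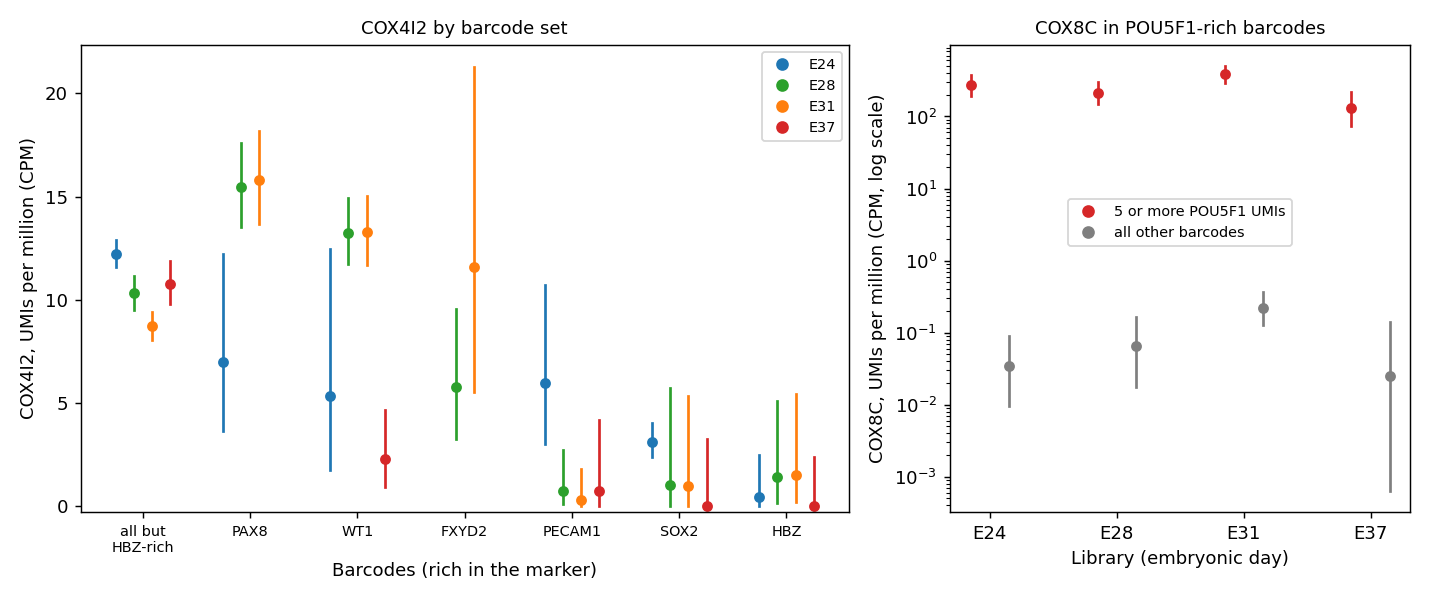
Left, COX4I2 in CPM by barcode set and library; right, COX8C in barcodes with at least 5 POU5F1 UMIs (red) and in all others (grey), on a log axis; bars are exact Poisson 95% intervals, counting error only, and sets not compared are left out. COX4I2 is highest in PAX8-rich and WT1-rich barcodes at E28 and E31, and COX8C lies between 132 and 388 CPM in POU5F1-rich barcodes.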

How the data were processed

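The tables came from Cell Ranger 2.1.0, a version taken from the submitters' processing notes. They hold UMI counts as deposited by the authors, not normalized, 1 for each gene and barcode, and list only barcodes that the authors had kept as cells. The labels' protocols describe trypsin and EDTA dissociation and name v2 chemistry as well as v3 kits. The sources used here give neither the genome build nor the annotation. A row with a blank name held 0% of UMIs.

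UMI counts were summed over barcodes and divided by their total (Python 3.11.15, numpy 2.4.6, scipy 1.17.1, pandas 2.3.3, figures with matplotlib 3.10.9). A gene was compared (called "tested" in the text, with no test meant) where at least 50 UMIs were expected in the smaller group at the mean of both levels, and sets were compared from 50 barcodes. Intervals are exact at 95%: Poisson for levels, conditional binomial for ratios. With 1 library per stage there are no replicates and no tests. The calculation was checked on simulated counts. No doublet caller was run. Some single-gene results are not reported here. Barcodes rich in 1 marker alone, and barcodes within 0.5 to 2 times the median depth, were alternatives, as were other thresholds and filters and totals without haemoglobin and ribosomal genes. The text names, per comparison, up to 8 members per direction past 1.5-fold, the 3 highest members of each complex and the isoform pairs. Added after their values were seen were UQCRC1, UQCRFS1, NDUFS8, NDUFS7, NDUFV1, NDUFS1, NDUFA10, NDUFAF3, NDUFAF4 and NDUFAF7. So were the values of the listed regulators and the stage levels within marker sets. Members and lists were chosen with earlier results of these data known.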

Additional observations from a re-analysis of the deposited data

Results flagged for a closer look

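The summed level of the named members in SOX2-rich barcodes lay on opposite sides of the rest in different libraries: 1.04787 at E24 and 1.09975 at E37, against 0.983081 at E31. The intervals do not reach 1 in these libraries, but they cover counting error only and not the spread between barcodes. The difference between the libraries was not tested.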

How the results depend on the processing

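No paired analysis was possible because each stage is 1 library and the labels give no replicate numbers. Over the comparisons and alternatives run, HBZ at E28 left out, the count of members past 1.5-fold in either direction stayed within 1.5 times its main value in 142 cases and moved further in 17. Median log2 ratios moved in 24, reversed in 2 and held in 133, and single genes moved in 85 and held in 356. The 2 counted as reversed do not cover every change of sign. Those under the total without haemoglobin and 2 unnamed rows are given below. From E24 to E28 it was 2 with 20 expected UMIs. In PECAM1-rich barcodes at E24, where it was 0, it was 1 with the lower marker threshold, 2 with the higher, 1 in barcodes rich in PECAM1 alone and 1 without haemoglobin and ribosomal protein genes in the total. At E37, against 3, it was 6 with the higher threshold and 5 with 20 expected UMIs. In FXYD2-rich barcodes at E31 it was 3 in those rich in FXYD2 alone and 4 within the depth window. In SOX2-rich barcodes it was 1 at E28 for SOX2 alone and 1 at E37 with 20 expected UMIs. In HBZ-rich barcodes the total without haemoglobin and ribosomal protein genes gave 13 at E24, 11 at E31 and 28 at E37, the depth window gave 15 at E31, and the total without haemoglobin and 2 unnamed rows gave 14 at E31 and 21 at E37. Under that total the median log2 ratio turned from negative to 0.24 at E24, 0.28 at E31 and 0.48 at E37. The count at E24, 17 against 25, hides this turn, from 24 downward and 1 upward to 1 downward and 16 upward. At E28 the median turned to 0.33 and the count went from 37 to 16. The removed genes hold a large share of the UMIs of these barcodes. Causes of the other moves were not tested. Except for the total without haemoglobin and 2 unnamed rows, the shares of all genes under these alternatives are not given here. The higher threshold was not run for FXYD2 at E31 and WT1 at E24, which left 4 barcodes each.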

Other observations

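Barcodes with at least 2 COX4I2 UMIs, a set made after its values were seen, numbered 203, 96, 96 and 81 and held 69.5%, 35.3%, 35.6% and 69.5% of all COX4I2 UMIs at E24, E28, E31 and E37. The genes that led these barcodes over the rest of their library differed between libraries. At E24 they included VTCN1, an immune checkpoint gene also known from trophoblast and amnion (111.8 against 1.98 CPM), GABRP (138.0 against 2.56 CPM) and INSL4. At E28 and E31 they included CALB1, a calcium-binding protein of distal nephron cells (1044 against 221 and 1238 against 202 CPM) and PKHD1, a gene of tubule epithelium. At E37 they included CHGB (1653 against 22.5 CPM) and DBH, the enzyme that makes noradrenaline (759 against 11.1 CPM), with ACTA2, smooth muscle actin (1366 against 19.7 CPM). A single barcode held at most 38, 6, 6 and 9 COX4I2 UMIs.

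COX7B2, a form of subunit VIIb described from testis, had 10 UMIs at E24, 7 at E28, 2 at E31 and 0 at E37. All 7 at E28 lay in the POU5F1-rich barcodes, and none of the 10 at E24 or the 2 at E31 did.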
